A study of Homo sapiens with 2 samples.

Results

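The nuclear-encoded genes of oxidative phosphorylation were compared between an olaparib-resistant Capan-1 culture and its parent. Members were the protein-coding genes outside chromosome 13 whose symbols start with NDUFA, NDUFB, NDUFC, NDUFS, NDUFV, UQCR, COX4 to COX8 or ATP5, together with SDHA, SDHB, SDHC, SDHD and CYC1. The rule used names alone, and it found 97 of the 31845 genes in the deposited table, of which 16348 were protein-coding. Complex I had 46 members, complex II 4, complex III 10, complex IV 17 and complex V 20. The rule also admitted 8 assembly factors of complex I (NDUFAF genes) and 2 read-through genes.

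Capan-1 is an established human line from a pancreatic cancer, and it carries a mutated BRCA2, although the labels' cell type field names breast cancer. The parental group was 1 library of the original line, labelled as control. The resistant group was 1 library of a culture grown in rising olaparib, an inhibitor of the PARP enzymes, from 15 nM to 128 µM, and both shared the same medium and RNA extraction. The labels do not say whether the resistant culture is 1 clone, nor whether olaparib was present at harvest. Each group is a single library, without replicates, so no test was run and each difference below is between these 2 libraries.

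In oxidative phosphorylation, complex I (NADH dehydrogenase) and complex II (succinate dehydrogenase) pass electrons to ubiquinone, complex III passes them to cytochrome c, and complex IV (cytochrome c oxidase) passes them to oxygen. Complexes I, III and IV pump protons across the inner mitochondrial membrane, and complex V (ATP synthase) uses the gradient to make ATP. Most subunits are encoded in the nucleus and imported, while a few hydrophobic ones are encoded in mitochondrial DNA, so each complex except complex II is built from both genomes.

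The libraries held 34507480 resistant and 34572931 parental counts. The resistant columns are headed with a name that the labels do not spell out, and they were assigned as the library left once the parental one was matched, so every direction rests on that. BRCA2, which the series title names as amplified, had 7585 resistant and 1381 parental counts, a ratio of 5.53 (counting interval 5.22 to 5.86). All 5 epithelial markers passed 50 counts, at 33.3 to 932 FPKM (resistant) and 19.2 to 704 FPKM (parental). Of 4 endothelial and 5 muscle markers, only 2 of each were among the deposited genes. None of these passed 50 counts, with summed endothelial counts of 3 in each library and muscle counts of 4 and 8. LYZ, with 1555 resistant and 30464 parental counts, was the 1 of 5 leukocyte markers that did and held nearly all of the list's sums (1581 and 30488), while CD14 was at 0 in the resistant library. Of 6 fibroblast markers, 5 were among the deposited genes. LUM and COL1A1 were those that passed, LUM with 523 and 35 counts and COL1A1 with 38 and 97, of sums of 580 and 133. DCN and COL3A1 were at 0 in the parental library. The part of these differences in the results below was not tested.

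Many nuclear respiratory genes have promoters that bind the factor NRF1 (nuclear respiratory factor 1), GABPA and other ETS factors, or YY1. RefSeq promoters of build GRCh38.p14, which span 250 bases before to 50 after the annotated start, were matched by symbol for 77 of the 97 members. The NRF1 letters GCGCATGCG, on either strand, were in 11 of these 77 promoters (14.3%), against 1.92% of all 35116 promoters and 3.77% of 9729 promoters of coding genes at 50 counts. In 9 of the 11 members they lay wholly before the start. The 6 stretches below are the 3 members of those 9 with the highest and the 3 with the lowest ratio between the libraries, so that the same letters can be seen on both sides of the range. Each is printed 5′ to 3′ on the gene's strand, in lower case, with NRF1 or ETS letters in capitals.
SDHD: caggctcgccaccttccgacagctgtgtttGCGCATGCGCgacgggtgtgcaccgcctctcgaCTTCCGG
NDUFS6: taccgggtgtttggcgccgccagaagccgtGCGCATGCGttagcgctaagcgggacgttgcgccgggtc
ATP5ME: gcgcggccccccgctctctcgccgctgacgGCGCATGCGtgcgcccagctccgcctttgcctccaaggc
ATP5F1C: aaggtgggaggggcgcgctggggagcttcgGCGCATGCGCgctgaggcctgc
ATP5MC2: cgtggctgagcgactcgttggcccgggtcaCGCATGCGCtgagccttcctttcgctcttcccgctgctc
NDUFB4: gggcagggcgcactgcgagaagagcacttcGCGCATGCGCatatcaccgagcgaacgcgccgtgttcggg
They lie at chr11:112086733-112086802 on the plus strand for SDHD, chr5:1801331-1801399 on the plus strand for NDUFS6, chr4:674316-674384 on the minus strand for ATP5ME, chr10:7788125-7788176 on the plus strand for ATP5F1C, chr12:53676086-53676154 on the minus strand for ATP5MC2 and chr3:120596147-120596216 on the plus strand for NDUFB4. SDHD alone among these stretches also holds the ETS letters CCGGAAG, on the opposite strand at its end. The stretches of SDHD, ATP5F1C and NDUFB4 hold the NRF1 letters on both strands at once, as overlapping matches. The other 3 NRF1 members with the letters before the start were COX6A1, ATP5PF and NDUFS7.

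Looser and other letters gave the same order of shares. GCGCANGCG, which contains the exact NRF1 letters, was in 24 of the 77 member promoters (31.2%) and in 15.1% of the coding promoters. The ETS letters were in 21 (27.3%) and in 20.0%, and the YY1 letters AAGATGGCG were in 8 (10.4%) and in 4.06%. The median GC content was 61.0% in member promoters and 65.0% in coding promoters. The median log2 ratio of members was 0.27 with and 0.35 without the exact NRF1 letters, and 0.27 and 0.35 for the looser ones. It was 0.35 and 0.30 for ETS, and 0.35 and 0.33 for YY1. Whether the letters go with the ratio was not tested. The NRF1 members ran from -0.54 (NDUFB4) to 1.02 (NDUFAF5). These are matches of letters and not bound sites.

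The ratio used throughout is the resistant over the parental count after scaling the libraries by TMM over the whole table, with 1 count added to each. Intervals in brackets are exact 95% intervals for counting error only. Counts of 2 libraries are shares of the RNA sequenced, so a member's RNA per cell and the other RNA of the cell cannot be told apart. Of the 97 members, 90 reached 50 counts in at least 1 library. The median log2 ratio of these 90 was 0.33 (1.26-fold), and they ran from -0.54 for NDUFB4 to 1.05 for NDUFAF7. The log2 ratio was above 0 for 78 of the 90 (86.7%), against 51.2 percent of all genes at 50 counts and 51.3 percent of protein-coding ones. The median over 12143 coding genes was 0.09. Counting intervals lay above 1 for 76 of the 90 members and below 1 for 8. Over the 15102 genes at 50 counts, they lay above 1 for 6596 and below 1 for 6223. All members together held 1.54% of resistant and 1.25% of parental counts.

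Most differences were small, and most were in the same direction. At least 1.5-fold higher were 8 of the 90 members, against 16.8 percent of all genes and 16.5 percent of coding genes, and 0 were at least 1.5-fold lower, against 21.2 percent of both. Past 2-fold were NDUFAF7 and NDUFAF5, both higher, against 6.0 percent of all genes and 5.47 percent of coding ones, while 0 members were 2-fold lower, against 8.95 and 8.75 percent. Both fell short of 2-fold (a log2 ratio of 1) with median of ratios scaling, at 0.98 for NDUFAF7 and 0.96 for NDUFAF5, and NDUFAF5 also with the length trend removed (0.88) and with a prior of 5 counts (0.99). Within 1.5-fold were 82 members (91.1%), against 61.9 percent of all genes and 62.3 percent of coding genes. The SD of the log2 ratio was 0.29 over members and 0.89 over coding genes. Members were also more abundant, with median levels of 63.4 (resistant) and 50.2 FPKM (parental). Coding genes at 50 counts had 5.65 and 5.51 FPKM. The part of level in these shares and in this spread was not tested. Coding genes had 2 peaks, with 28.5% of them between 0.2 and 0.6 on the log2 scale, 21.1% between -0.6 and -0.2, and 14.0% between -0.2 and 0.2. Of the members, 58 (64.4%) lay between 0.2 and 0.6, 18 between -0.2 and 0.2, and 6 between -0.6 and -0.2. For 10 members, a gene with overlapping exons on the same strand held more counts than the member in both libraries, so that the split between them is uncertain: ATP5MF, ATP5PO, COX6A1, NDUFA11, NDUFA7, NDUFB8, NDUFS3, NDUFV2, SDHD and UQCR11.

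**Figure D1:**
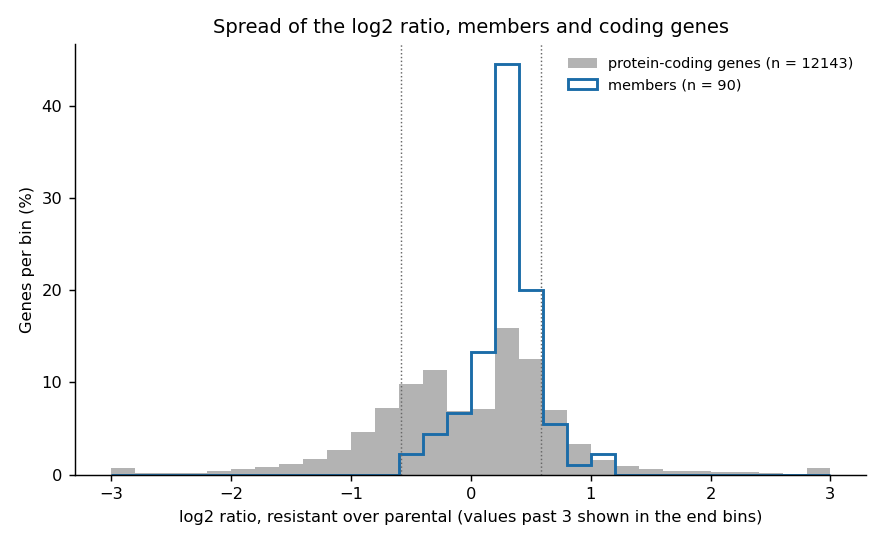
Share of genes per bin (y axis, percent) by log2 ratio of resistant over parental counts (x axis) for 90 members (blue line) and 12143 protein-coding genes (grey), with dotted lines at 1.5-fold. The coding genes form 2 peaks on either side of 0, and 58 members lie between 0.2 and 0.6, within the upper one.

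The 7 core subunits of complex I, which carry the flavin and iron-sulfur clusters or lie next to them, were all higher in the resistant library and close to each other. Their log2 ratios ran from 0.24 to 0.41, with a median of 0.34 and an SD of 0.06. NDUFS1, which carries iron-sulfur clusters, had 37584 resistant and 28531 parental counts, a ratio of 1.33. NDUFV1, which binds the flavin and NADH, had 5902 resistant and 4607 parental counts. NDUFV2, an iron-sulfur protein and the most abundant of complex I per length in the resistant library (256 and 209 FPKM), had 5758 resistant and 4897 parental counts, a ratio of 1.18 (1.14 to 1.23). In the same order of resistant and parental counts, others were NDUFS3 (608 and 477), of the peripheral arm, and NDUFS7 (746 and 628) and NDUFS8 (1561 and 1251), which carry the clusters nearest to ubiquinone. All 7 counting intervals lay above 1. NDUFV2 is uncertain, since an overlapping same-strand transcript held 34479 and 31059 counts, and its pseudogene NDUFV2P1 held 467 and 481.

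The 30 accessory subunits, which surround the core, had a median log2 ratio of 0.36. Above 0 were 26, against 51.2 percent of all genes at 50 counts. At least 1.5-fold higher was 1, against 16.8 percent, and none was lower by that size, against 21.2 percent. NDUFB1, a small subunit of the membrane arm, had 1443 resistant and 854 parental counts, a ratio of 1.70 (1.56 to 1.85). NDUFB9 had 15017 resistant and 10181 parental counts, a ratio of 1.48 (1.45 to 1.52), and NDUFS5 had 11769 resistant and 10527 parental counts, a ratio of 1.13 (1.10 to 1.16). These 2 were the next most abundant of the complex, with 248 and 161 FPKM for NDUFB9 and 252 and 216 for NDUFS5.

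The lowest 3 of all members were accessory subunits of complex I. NDUFB4, of the membrane arm, had 1867 resistant and 2735 parental counts, a ratio of 0.687 (0.647 to 0.729). NDUFA12, which is joined late in assembly, had 2966 resistant and 4157 parental counts, a ratio of 0.718 (0.685 to 0.753). NDUFA5, of the peripheral arm, had 3752 resistant and 4953 parental counts, a ratio of 0.763 (0.731 to 0.796). All 3 were lower in the resistant library beyond counting error, opposite to the core. NDUFAF2, the paralog of NDUFA12 that holds its place during assembly, was higher, with 3956 resistant and 2718 parental counts.

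Close to equal were NDUFA2 (1574 and 1615), NDUFB5 (9108 and 8773) and NDUFA10 (3848 and 3703), of which NDUFA2 was below 0 as scaled here and above 0 under upper quartile scaling (0.04). Higher by a log2 ratio under 0.3 were NDUFB3 (7141 and 6552), NDUFA8 (2323 and 2072), NDUFA11 (344 and 299) and NDUFB6 (1871 and 1589). Between 0.3 and 0.4 lay NDUFB11 (1380 and 1126), NDUFA9 (4916 and 3960), NDUFA13 (7767 and 6136), NDUFB7 (2348 and 1854), NDUFC2 (6715 and 5258), NDUFAB1 (7757 and 6043), NDUFB10 (3532 and 2731), NDUFA6 (6701 and 5173), NDUFB8 (2098 and 1603) and NDUFA3 (389 and 297). NDUFAB1 is also the mitochondrial acyl carrier protein. Between 0.4 and 0.6 lay NDUFA7 (1313 and 972), NDUFS4 (5829 and 4229), NDUFA1 (4782 and 3439), NDUFC1 (495 and 346), NDUFB2 (4713 and 3291), NDUFS6 (10408 and 7235) and NDUFV3 (949 and 652). NDUFS4 and NDUFS6 lie at the peripheral arm. The read-through gene NDUFC2-KCTD14 had 6372 resistant and 5337 parental counts, about as many as NDUFC2, with which it shares exons, so the split between them is uncertain.

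Among the 8 assembly factors of complex I, 6 were above 0, against 51.2 percent of all genes at 50 counts. The 2 highest ratios of all members at 50 counts were here. NDUFAF7, a methyltransferase of complex I assembly, had 3202 resistant and 1560 parental counts, a ratio of 2.07 (1.94 to 2.20). NDUFAF5, which hydroxylates the core subunit NDUFS7, had 176 resistant and 87 parental counts, a ratio of 2.02 (1.57 to 2.66), and its low depth gives the widest interval. Its substrate did not differ as much: NDUFS7 had a log2 ratio of 0.26, beside 1.02 for NDUFAF5. NDUFAF8, a partner of NDUFAF5, had 1575 resistant and 1301 parental counts. Of the early factors, NDUFAF4 (706 and 510) and NDUFAF6 (665 and 495) were higher, while NDUFAF3, the partner of NDUFAF4, had 1027 resistant and 1273 parental counts and NDUFAF1 had 788 resistant and 845 parental counts. The exons of NDUFAF7 overlap the opposite-strand gene CEBPZ, with 30514 resistant and 21845 parental counts. The library kit keeps strand, but whether the counting step used it is not stated in the labels.

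**Figure D2:**
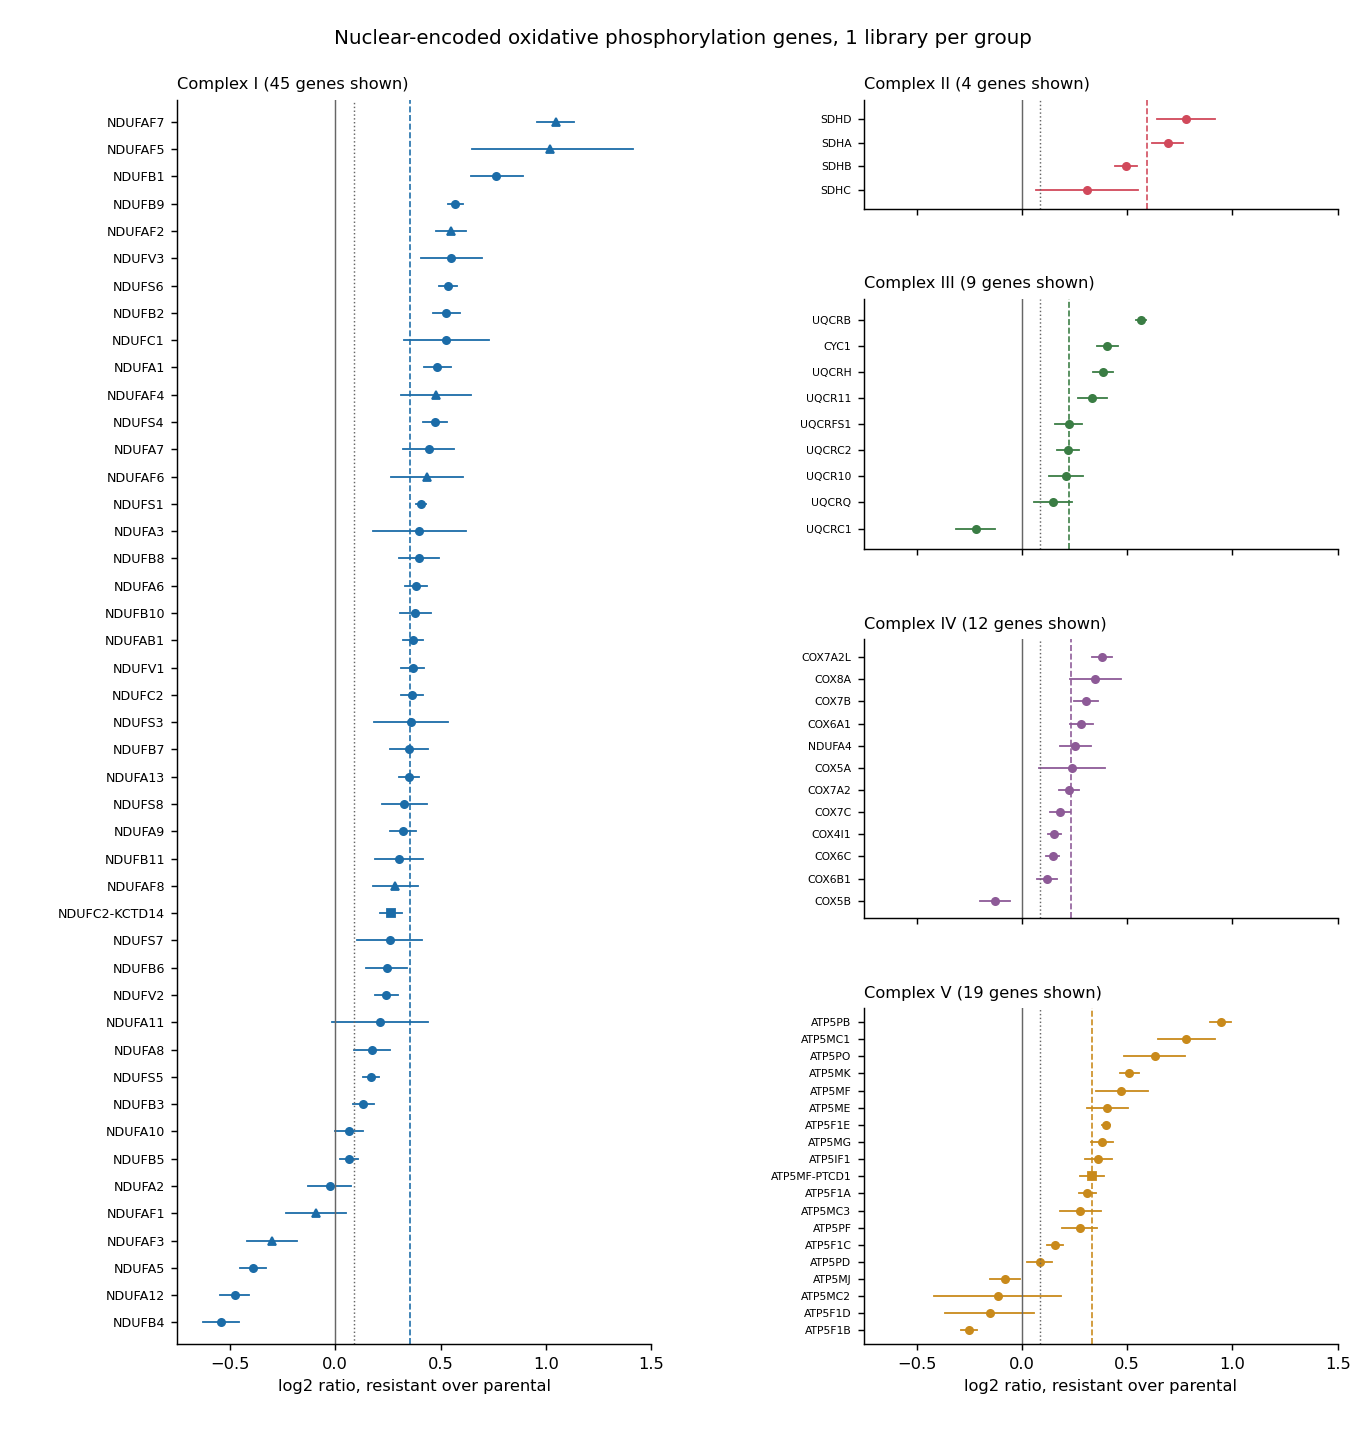
Log2 ratio of resistant over parental counts (x axis) for 89 of the 90 members at 50 counts, by complex, with exact 95% counting intervals as bars. Circles are subunits, triangles assembly factors and squares read-through genes, dashed lines mark the median of each complex and the dotted line that of coding genes (0.09). The core subunits of complex I lie between 0.24 and 0.41, while NDUFB4, NDUFA12 and NDUFA5 lie lowest.

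Complex II has no subunit from mitochondrial DNA and had the highest median log2 ratio, 0.59 over 4 genes, all higher in the resistant library. SDHA, the flavoprotein that oxidizes succinate, had 3843 resistant and 2394 parental counts, a ratio of 1.62 (1.54 to 1.70). SDHB, the iron-sulfur subunit, had 6924 resistant and 4954 parental counts, a ratio of 1.41 (1.36 to 1.46). The membrane anchors differed in ratio, with 1188 resistant and 697 parental counts for SDHD, a ratio of 1.71 (1.56 to 1.89), and 316 resistant and 257 parental counts for SDHC, a ratio of 1.24 (1.05 to 1.47). The intervals of SDHD and SDHC do not overlap. In FPKM the order was SDHB (125 and 86.0), SDHA (77.9 and 46.5), SDHD (30.3 and 17.1) and SDHC (10.1 and 7.85) in both libraries.

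SDHA is uncertain, since reads could be split between it and its copies, which was not tested. Its 4 named pseudogenes held 8030 resistant and 8151 parental counts, more than SDHA itself, and 7128 and 7310 of these were SDHAP2. With the copies added, SDHA had 11873 and 10545 counts, a ratio of 1.13 (1.10 to 1.16), which is under 1.5-fold. SDHD is uncertain too: an overlapping same-strand gene held 1773 and 1094 counts, it also overlaps TIMM8B on the opposite strand, and its pseudogene SDHDP3 held 76 and 38 counts. Without SDHA and SDHD the median of the complex was 0.40, from SDHB and SDHC.

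In complex III, 9 genes gave a median log2 ratio of 0.22, with 8 above 0, against 51.2 percent of all genes at 50 counts. None of its genes was past 1.5-fold, against 16.8 percent of all genes higher and 21.2 percent lower by that size. Its redox subunits were both higher. CYC1, cytochrome c1, had 7865 resistant and 5974 parental counts, a ratio of 1.33 (1.28 to 1.37). UQCRFS1, the Rieske iron-sulfur protein, had 4093 resistant and 3533 parental counts, and its pseudogene UQCRFS1P1 held 229 and 190. UQCRB, a small subunit near the ubiquinone site, was the most abundant member of all in both libraries, at 865 and 564 FPKM, and had 37906 resistant and 25771 parental counts, a ratio of 1.48 (1.46 to 1.504). UQCRH, the hinge protein between cytochromes c1 and c, had 8027 resistant and 6187 parental counts, a ratio of 1.31 (1.26 to 1.35). The 2 large core proteins differed in direction: UQCRC1 had 1823 resistant and 2138 parental counts, a ratio of 0.858 (0.806 to 0.914), and UQCRC2 had 6505 resistant and 5629 parental counts, a ratio of 1.16. Of the small subunits, UQCRQ had 2027 resistant and 1843 parental counts and a ratio of 1.11 (1.04 to 1.18), UQCR10 had 2791 resistant and 2431 parental counts and a ratio of 1.16 (1.09 to 1.22), and UQCR11 had 3961 resistant and 3161 parental counts. UQCRHL, a near-copy of UQCRH, had 7 resistant and 9 parental counts, under the minimum.

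Complex IV had the smallest SD of log2 ratios among the 5 complexes, 0.13, with values from -0.13 to 0.38 and a median of 0.23 over 12 genes. COX4I1, its most abundant subunit per length (455 and 395 FPKM), had 18236 resistant and 16498 parental counts, a ratio of 1.11 (1.09 to 1.14). COX6C had 18369 resistant and 16712 parental counts, a ratio of 1.11 (1.08 to 1.13). COX7A2 had 7577 resistant and 6530 parental counts, a ratio of 1.17 (1.13 to 1.21), and COX7C, at 249 and 211 FPKM close to COX7A2 (249 and 206), had 7806 resistant and 6926 parental counts. COX6B1, which faces the intermembrane space, had 7136 resistant and 6611 parental counts, a ratio of 1.09 (1.05 to 1.12). COX5B, which faces the matrix, was the 1 subunit of the complex lower in the resistant library, with 2965 resistant and 3261 parental counts and a ratio of 0.915 (0.871 to 0.962).

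The highest ratios of complex IV were small as well. COX7A2L, a factor that joins complexes III and IV into supercomplexes, had 8346 resistant and 6450 parental counts, a ratio of 1.30 (1.26 to 1.35). COX8A had 1286 resistant and 1016 parental counts, a ratio of 1.27 (1.17 to 1.38), and COX7B had 5530 resistant and 4512 parental counts, a ratio of 1.23 (1.19 to 1.28). Next below them were COX6A1 (6267 and 5186), NDUFA4 (3330 and 2813) and COX5A (721 and 615), and the pseudogene COX6A1P2 held 557 and 459 counts. NDUFA4, despite its name, is a subunit of complex IV.

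Tissue isoforms of complex IV were near the limit of detection. COX4I2, the lung isoform, had 6 resistant and 0 parental counts, at least 2.01-fold higher against a floor of 3 counts per library, with a counting interval that starts at a ratio of 1.19. COX6B2 and COX7B2, known from testis, had 30 and 7 counts and 20 and 2 counts, ratios of 3.90 (1.86 to 11.6) and 7.05 (2.45 to 88.8). In FPKM, COX7B2 made up 1.43% of COX7B and COX7B2 among resistant and 0.18% among parental values. COX8C had 1 and 0. NDUFA4L2, the hypoxia-induced paralog of NDUFA4, had 0 resistant and 8 parental counts, at least 2.65-fold lower against the same floor, with a counting interval that reaches a ratio of 0.590, and it overlaps SHMT2. The share of COX7B2 was the highest of the 5 pairs of COX4I1, COX6B1, COX7B, COX8A and NDUFA4 with these isoforms, in both libraries.

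In complex V, 19 genes gave a median log2 ratio of 0.33. Above 0 were 15, against 51.2 percent of all genes at 50 counts. At least 1.5-fold higher were 3, against 16.8 percent, to which this share is close. The medians of the parts differed, but their ranges overlapped. The peripheral stalk, which holds the catalytic head in place, had a median of 0.45 over 4 genes (0.08 to 0.94). The membrane accessory subunits had 0.40 over 5 (-0.08 to 0.51) and the c-ring 0.28 over 3 (-0.12 to 0.78). The catalytic head with its central stalk had 0.16 over 5 (-0.25 to 0.40). All 4 genes of the peripheral stalk overlap another gene at 50 counts. Without members that overlap another gene or have a pseudogene at 50 counts, the median of the complex was 0.10, beside 0.09 over coding genes. That left ATP5F1B, ATP5F1D, ATP5MC2 and ATP5MJ below 0, and ATP5F1E, ATP5MC1, ATP5MC3 and ATP5IF1 above 0.

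In the peripheral stalk, ATP5PB, subunit b, had 9455 resistant and 4944 parental counts, a ratio of 1.92 (1.86 to 1.99). It overlaps the opposite-strand gene WDR77, which had 2324 and 1223 counts. ATP5PO, the subunit named for oligomycin sensitivity, had 978 resistant and 636 parental counts, a ratio of 1.55 (1.40 to 1.71), which was under 1.5-fold with median of ratios scaling (log2 ratio 0.57) and with the length trend removed (0.56). ATP5PO overlaps a same-strand gene with 4777 and 4204 counts, so its count is uncertain. The remaining stalk subunits were ATP5PD (4791 and 4547) and ATP5PF (2470 and 2057). All 4 intervals lay above 1.

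The subunits of the catalytic head differed in direction. ATP5F1B, the catalytic beta subunit, had 10855 resistant and 13013 parental counts, a ratio of 0.840 (0.819 to 0.861), while ATP5F1A, the alpha subunit that alternates with it in the same ring, had 10890 resistant and 8841 parental counts, a ratio of 1.24 (1.21 to 1.28). Of the central stalk, ATP5F1C had 13245 resistant and 11959 parental counts, and ATP5F1E had 51629 resistant and 39409 parental counts, a ratio of 1.32 (1.30 to 1.34) and the highest level of the complex (323 and 236 FPKM). ATP5F1D, the remaining stalk subunit, had 357 resistant and 400 parental counts, a ratio of 0.899 (0.777 to 1.04), and was the least abundant member at 50 counts in the resistant library (3.67 and 3.94 FPKM). The inhibitor ATP5IF1 had 4559 resistant and 3571 parental counts.

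The c subunit of the rotor ring is encoded by 3 genes that give the same mature protein. ATP5MC1 had 1230 resistant and 720 parental counts, a ratio of 1.72 (1.57 to 1.89). ATP5MC3 had 1933 resistant and 1606 parental counts, and ATP5MC2 had 176 resistant and 192 parental counts, a ratio of 0.923 (0.748 to 1.14). The mix thus differed: ATP5MC1 made up 46.6% of their summed FPKM (resistant) against 37.1% (parental), ATP5MC3 46.3% and 52.3%, and ATP5MC2 7.12% and 10.6%. The sum was 71.6 FPKM against 50.4.

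Of the subunits around the ring, ATP5MG, which with ATP5ME lies at the dimer interface, had 6834 resistant and 5284 parental counts, a ratio of 1.30 (1.26 to 1.35) and 239 and 177 FPKM. The others were ATP5ME (1975 and 1502), ATP5MF (1274 and 924), ATP5MK (9981 and 7051) and ATP5MJ (3026 and 3222), with ATP5MJ the 1 below 0. The pseudogene ATP5MKP1 held 150 and 106 counts. The read-through gene ATP5MF-PTCD1 had 5701 resistant and 4562 parental counts, more than ATP5MF, whose count is therefore uncertain. ATP5MGL, a near-copy of ATP5MG, had 10 counts in each library.

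Levels per length kept their order. Over the 90 members, the deposited FPKM values of the 2 libraries had a Pearson r of 0.986 on the log2 scale and a Spearman rho of 0.984, across genes that share the libraries and their depth. The median was 63.4 FPKM (resistant) and 50.2 FPKM (parental), and 34 members were above 100 FPKM in the resistant library against 25 in the parental one. UQCRB and COX4I1 led in both. The rank of NDUFA12 differed most, by 17 places.

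**Figure D3:**
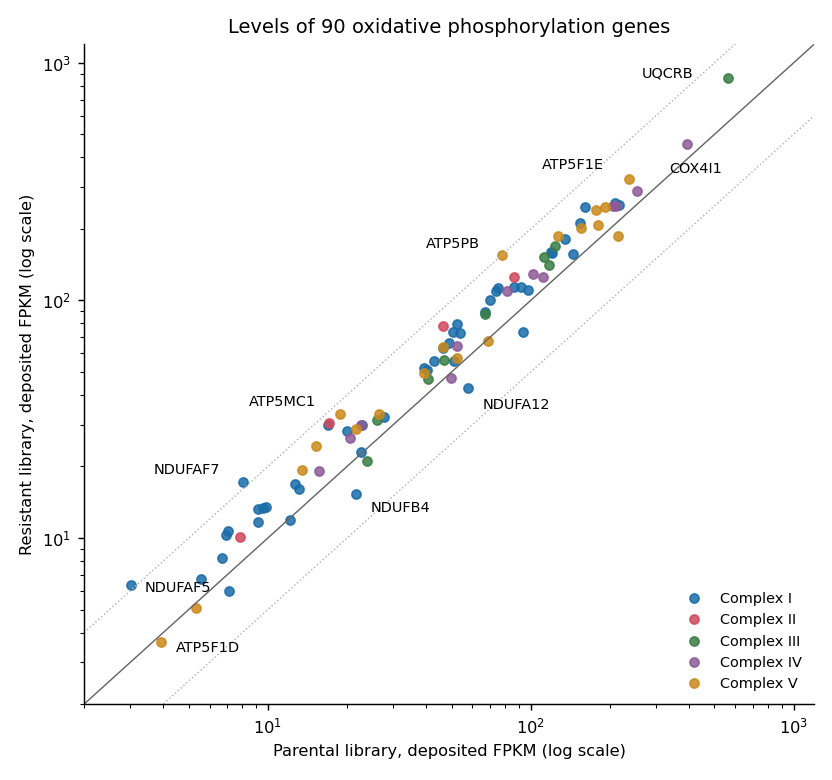
Deposited FPKM of the 90 members in the parental (x axis) and resistant (y axis) library, both on log scales, coloured by complex. The solid line marks equal levels and the dotted lines 2-fold, and NDUFAF7 (17.3 and 8.08 FPKM) and NDUFAF5 (6.34 and 3.01 FPKM) lie above the upper one.

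Members are short genes, and the ratio went with gene length. Relative length was the count over the FPKM value. In the 5 shortest deciles of coding genes lay 80 of the 90 members, with a median log2 ratio of 0.33, against 0.20 over the 6072 coding genes there. Of those 80, 70 were above 0 (57.6% of the coding genes there). The 10 longer members, in deciles 6 to 8, had a median of 0.30, with 8 above 0. Of the coding genes in deciles 6, 7 and 8, 55.9, 51.6 and 46.2 percent were above 0. With the trend over length removed, and the median of coding genes kept at 0.09, the members' median was 0.25 and 75 were above 0, against 52.6 percent of all genes and 53.7 percent of coding genes.

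**Figure D4:**
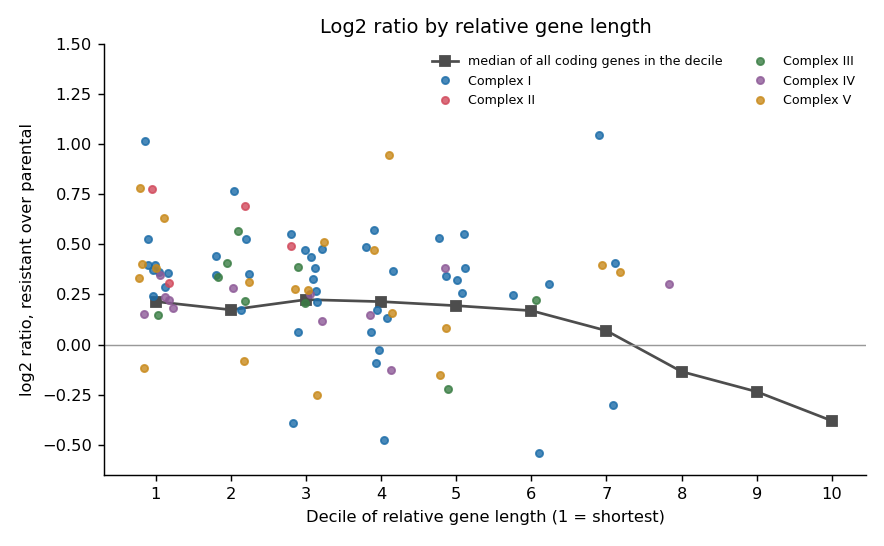
Log2 ratio of resistant over parental counts (y axis) by decile of relative gene length (x axis, 1 the shortest) for the 90 members (dots, coloured by complex, spread sideways for legibility) and the median of all coding genes in each decile (squares). The median of coding genes goes from 0.21 in the shortest decile to -0.38 in the longest, where there is no member.

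A member's ratio also went with that of the genes around it. For each member the median log2 ratio was taken over up to 10 coding genes that were no members on each side, in GENCODE 29 order. Over 90 members the Pearson r between the member and this median was 0.48 and Spearman's rho 0.34, against 0.23 and 0.26 over 11933 coding genes, and adjacent genes share neighbours. Above their neighbours were 76 members (84.4%), against 50.4 percent of the coding genes. Where the neighbours' median was below 0, 29 of 38 members were above 0, with a median of 0.26. Where it was above 0, 49 of 52 were, with a median of 0.36. Of all coding genes at 50 counts, 51.3 percent were above 0, and their shares split by the neighbours' median were not computed.

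The lowest members sat among genes that were lower too. The neighbours' median was -0.66 for NDUFA5, -0.62 for NDUFB4, -0.56 for NDUFA12 and -0.53 for ATP5F1B, each below the member's own log2 ratio. ATP5F1D and COX5B were lower among genes that were higher, with neighbours at 0.46 and 0.35. NDUFAF7 and ATP5PB had neighbours at 0.56 and 0.58, so that they exceeded them by 0.49 and 0.37. SDHB stood farthest above its neighbours among the 4 subunits of complex II, by 0.92. The 4 members on chromosome 3 had a median of -0.26 (coding genes there -0.41) and the 5 on chromosome 12 one of -0.12 (coding genes -0.27). On chromosome 7 the 5 members had a median of 0.33 and the coding genes one of -0.18.

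**Figure D5:**
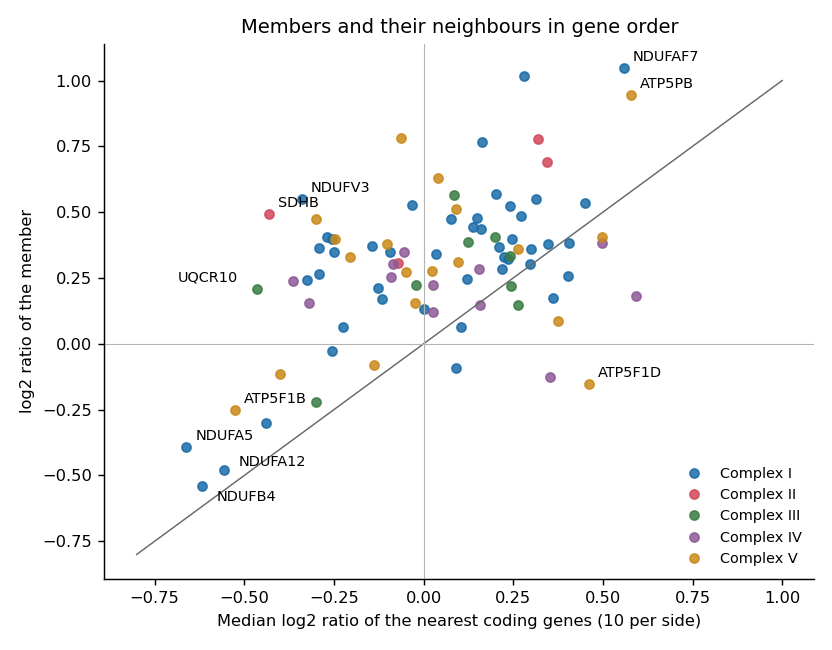
Log2 ratio of each of 90 members (y axis) against the median log2 ratio of its nearest coding genes (x axis), coloured by complex, with the diagonal marking equality. Above the diagonal are 76 members, and NDUFB4, NDUFA12 and NDUFA5 lie at the lower left beside neighbours that were also lower.

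The partners of the members gave similar medians. Over 51 assembly factors outside the rule the median log2 ratio was 0.32, with 37 above 0 (72.5%, against 51.2 percent of all genes). At least 1.5-fold higher were 8 (against 16.8 percent of all genes, to which this share is close), and 0 were lower by that size (against 21.2 percent). COX18, which inserts a mitochondrially made subunit of complex IV, had 538 resistant and 298 parental counts, a ratio of 1.81 (1.57 to 2.10). UQCC5, of complex III assembly, had 957 resistant and 535 parental counts, and SDHAF3, of complex II assembly, had 2940 resistant and 1738 parental counts. Electron carriers and enzymes that feed ubiquinone had a median of 0.43 over 20 genes, with 4 at least 1.5-fold higher and 0 lower, against the same shares. PDSS1, of ubiquinone synthesis, had 2506 resistant and 1244 parental counts, GPD2 had 9236 resistant and 5694 parental counts and SQOR had 5079 resistant and 3229 parental counts. CYCS, cytochrome c itself, had 47125 resistant and 33085 parental counts, a ratio of 1.43 (1.41 to 1.45).

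Enzymes upstream and regulators were mixed. The list of tricarboxylic acid cycle enzymes also held subunits of pyruvate dehydrogenase. These were PDHA1, PDHX, DLAT and PDHB, with log2 ratios of 0.64, 0.49, 0.55 and -0.24. The whole list had a median of 0.22 over 18 genes, and the median without these subunits was not computed. Of the 18, 1 was at least 1.5-fold higher and 2 lower, against 16.8 and 21.2 percent of all genes. PDHA1, the 1 higher, had 5685 resistant and 3663 parental counts. SUCLA2, which lies on chromosome 13, had 1176 resistant and 1876 parental counts. Regulators of mitochondrial biogenesis had a median of 0.19 over 20 genes, with 2 higher and 2 lower by 1.5-fold, against the same shares. Their mean of -0.22 includes ESRRG, whose log2 ratio of -6.58 rests on 0 resistant counts. ESRRG, a nuclear receptor, had 0 resistant and 95 parental counts, at least 31.5-fold lower against the floor of 3 counts per library, with a counting interval that reaches a ratio of 0.040. The coactivators differed in direction, with 77 resistant and 37 parental counts for PPARGC1A and 580 resistant and 1040 parental counts for PPARGC1B. GABPA, the ETS factor named above, had 5543 resistant and 4820 parental counts, and NRF1 had 55 resistant and 70 parental counts, a ratio of 0.794 (0.545 to 1.14). The mitochondrially encoded subunits were not analysed here.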

How the data were processed

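RNA from 1 parental and 1 resistant Capan-1 library was measured by strand-specific RNA-seq, per the labels' protocols. The deposited counts per gene were made by the authors, with RSEM 1.2.3 and hg19 named in the submitters' processing notes; neither the annotation nor the strand setting of the counts is stated in the labels. The deposited FPKM values are the authors' counts per length and depth, and they served for levels between genes. The libraries were scaled by TMM (edgeR 4.0.16, R 4.3.3) over all 31845 genes. The log2 ratio used a prior of 1 count, genes needed 50 counts in the higher library, and folds of 1.5 and 2 were counted. Intervals are exact conditional 95% intervals (scipy 1.17.1) for counting error only, and read copies are not independent molecules. No p-value was computed. Symbols came from a gene name table (29536 identifiers matched) and gene types and order from GENCODE release 29 (29718 matched), and 2127 genes had no symbol. No coordinates of the files' build are printed.

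The members and lists were chosen with earlier results of these data known. The comparison with neighbours, the length deciles and the rule for the promoters printed were chosen after seeing values. Members are named with their counts, and 1 member and 1 gene of another list are not reported here. Intervals are given for the 3 most abundant, 3 highest and 3 lowest members of each complex and all past 1.5-fold; other lists name up to 3 genes past 1.5-fold, and CYCS, GABPA and NRF1 were added after their values were seen. The scripts were tested on simulated data. Other scalings, count minimums, priors, FPKM values and the removal of the length trend (a lowess fit with a fraction of 0.3, statsmodels 0.14.6) were tried.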

Additional observations from a re-analysis of the deposited data

How the results depend on the processing

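The members' median log2 ratio of 0.33 stayed above 0 under every alternative run, from 0.25 with the length trend removed to 0.40 with upper quartile scaling, and it was 0.27 with median of ratios scaling and 0.27 with the neighbours' median subtracted. Under these 4 settings in the same order (length trend removed, upper quartile, median of ratios, neighbours subtracted), the median was 0.53, 0.66, 0.53 and 0.42 for complex II and 0.13, 0.30, 0.17 and 0.16 for complex IV. For complex V it was 0.24, 0.40 and 0.27 under the first 3, and for complex III 0.29 with upper quartile scaling. With the deposited FPKM values complex IV had 0.28. With the length trend removed, coding genes had a median of 0.09 and the nuclear subunits of complex IV one of 0.10. Without members that overlap another gene or have a pseudogene at 50 counts (50 members left), complex II had 0.40 and complex V 0.10. Of these 50, 40 were above 0 (51.2 percent of all genes) and 3 at least 1.5-fold higher (16.8 percent), on fewer members by construction.

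The 8 members at least 1.5-fold higher became 15 with upper quartile scaling, 13 with FPKM, 14 with neighbours subtracted and 2 at a fold size of 2. The count of 0 lower became 1 with median of ratios, with the length trend removed, with no count minimum and with neighbours subtracted. Over the whole table, 2541 genes higher and 3209 lower became 3096 and 2769 with upper quartile scaling, 2940 and 2895 with FPKM and 2154 and 3626 with median of ratios, so the larger side turned under the first 2. They became 4132 and 5373 at a minimum of 10 counts, 1610 and 1976 at 200, 8205 and 10306 with no minimum, and 906 and 1352 at a fold size of 2. Fewer counts required means more genes tested, and the cause of the other moves was not tested. The median of all genes at the minimum, 0.06, moved by 0.07 or less under these scalings. Of 720 values of single members under the 8 planned settings that rescale them, 155 moved beyond the counting interval, 5 changed sign (all from members within 0.1 of 0) and 16 crossed 1.5-fold.

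The median of ratios was computed on genes at 50 counts, and the length trend was re-centred on the median of coding genes. Both were chosen after seeing first values. Leaving out overlapping members and subtracting the neighbours were also added after seeing the data. No paired analysis was possible because each group has 1 library. That also leaves culture, library and resistance inseparable, and low depth limits NDUFAF5 and the tissue isoforms.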

Other observations

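Non-coding genes named after members were measured beside them. NDUFV1-DT, which starts beside NDUFV1, had 270 resistant and 242 parental counts, NDUFV2-AS1 had 55 and 41, and UQCRB-AS1 had 56 and 39, with counting intervals of the ratio that include 1 (0.941 to 1.34, 0.885 to 2.08 and 0.944 to 2.23). NDUFA6-DT had 14 and 49 counts while NDUFA6 was higher in the resistant library. NDUFB2-AS1 (5 and 10) and UQCRFS1-DT (3 and 9) stayed under 50 counts. In the table were 64 pseudogenes named after members, for 40 of them, and 11 of the 64 reached 50 counts.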
